A study of Homo sapiens with 3 samples.

Results

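Muscle microRNAs, or myomiRs, are small RNAs made mainly in heart and skeletal muscle, and the promoter contacts of their genes were examined in hESC-CMs, heart muscle cells grown from human embryonic stem cells (hESCs). The members were *MIR1-1*, *MIR1-2*, *MIR133A1*, *MIR133A2*, *MIR133B*, *MIR206*, *MIR208A*, *MIR208B* and *MIR499A*. A member was represented by the promoter fragment, that is the HindIII fragment in the first position of a call, that held its start. The start was taken as the 5′ end of the microRNA hairpin, which need not be where transcription begins. All 9 genes had such a fragment, and the 9 fragments were distinct, among 19075 promoter fragments with a call and 25447 annotated genes with a start on one of them. *MIR1-2* and *MIR133A1* have no annotated start and are not counted in the 25447. Promoter capture Hi-C (PCHi-C) links DNA that is close in the nucleus by crosslinking and ligation and enriches the products for promoter fragments. It was done on hESC-CMs in 3 biological replicates, all made from WA09 (H9), an established hESC line, with the same differentiation kit and the same enrichment in medium with lactate in place of glucose. The cells were fixed with 2% formaldehyde, and no other genotype, treatment or time point was analysed here, so no groups were compared and no test was made. The replicates share 1 cell line, and PCHi-C measures DNA contacts and not RNA, so the labelled cell type could not be checked against marker levels.

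Each call joins a promoter fragment to a promoter-interacting region (PIR), which is another HindIII fragment, and carries a CHiCAGO score. CHiCAGO models the reads that a pair of fragments would have from distance and noise alone, and the score grows with the excess of reads over that model. No call scored under 5 in any set, so a contact that is not listed was not shown to be absent. The replicates held 112473, 109731 and 110740 calls, with median scores of 6.63, 6.64 and 6.65. Sequencing depth and read counts were not analysed here. An interaction was counted by its fragments, in either order, and the union of the 3 replicates held 200587 interactions.

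The myomiRs fall into 3 families and are encoded in pairs or inside myosin genes. *MIR1-1* with *MIR133A2* and *MIR1-2* with *MIR133A1* are each made from a shared primary transcript, and *MIR206* lies beside *MIR133B*. *MIR208A*, *MIR208B* and *MIR499A* lie in introns of the myosin heavy chain genes *MYH6*, *MYH7* and *MYH7B*. miR-1 and miR-133 act in muscle differentiation and in cardiac conduction and growth, miR-206 is known from skeletal muscle, and miR-208a, miR-208b and miR-499 act in the control of myosin isoforms and the stress response of the heart. A microRNA finds its target messages mainly through its seed, bases 2 to 8 from its 5′ end. The mature sequences (RefSeq) are shown because copies of 1 family lie in different chromosomal surroundings, and the seed is in capitals:
hsa-miR-1-3p: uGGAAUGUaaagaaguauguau
hsa-miR-206: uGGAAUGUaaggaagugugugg
hsa-miR-133a-3p: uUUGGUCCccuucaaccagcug
hsa-miR-133b: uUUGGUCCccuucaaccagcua
hsa-miR-208a-3p: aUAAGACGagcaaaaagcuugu
hsa-miR-208b-3p: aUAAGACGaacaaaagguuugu
hsa-miR-499a-5p: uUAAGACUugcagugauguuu
miR-1 and miR-206 shared the seed GGAAUGU and 18 of 22 positions, and miR-133a and miR-133b shared UUGGUCC and 21 of 22. miR-208a and miR-208b shared UAAGACG and 19 of 22 positions. The seed of miR-499a, UAAGACU, held the same bases 2 to 7 as theirs, UAAGAC. The identical mature miR-1-3p is encoded by *MIR1-1* on chromosome 20 and *MIR1-2* on chromosome 18, and miR-133a-3p by *MIR133A2* and *MIR133A1* beside them.

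The promoter fragments, in GRCh37, were chr20:61146139-61153374 for *MIR1-1*, chr20:61160244-61167341 for *MIR133A2*, chr18:19407614-19410585 for *MIR1-2*, chr18:19405499-19407457 for *MIR133A1*, chr6:52007850-52011459 for *MIR206* and chr6:52011460-52016232 for *MIR133B*. For the microRNAs of the myosin genes they were chr14:23857814-23862126 for *MIR208A*, chr14:23887258-23887807 for *MIR208B* and chr20:33573179-33582594 for *MIR499A*. Their lengths ran from 550 bp for *MIR208B* to 9416 bp for *MIR499A*. The *MIR1-1* fragment also held the start of *MIR1-1HG*, the primary transcript, and that of *CRMA*, and the *MIR133B* fragment held the start of *LINCMD1*, a long non-coding RNA of muscle. *MIR1-2* and *MIR133A1* lie antisense in the gene *MIB1*, a ubiquitin ligase of Notch signalling, and within the long non-coding RNA *MIR133A1HG*. These 2 genes are absent from the GENCODE v44 annotation lifted to GRCh37 and were placed by the match of their RefSeq hairpins.

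HindIII cuts inside the hairpins of *MIR208A* and *MIR208B*, so that neither hairpin lies whole on its promoter fragment. The hairpins (RefSeq, minus strand, at chr14:23857805-23857875 and chr14:23887196-23887272 in GRCh37) are shown with the HindIII site in capitals:
MIR208A hairpin: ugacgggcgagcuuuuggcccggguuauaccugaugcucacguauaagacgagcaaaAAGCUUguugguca
MIR208B hairpin: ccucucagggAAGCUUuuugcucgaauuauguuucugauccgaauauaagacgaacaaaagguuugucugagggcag
The site covers bases 58 to 63 of the *MIR208A* hairpin, inside the mature miR-208a-3p at bases 44 to 65, and the promoter fragment held 62 of the 71 bases. In *MIR208B* the site covers bases 11 to 16, ahead of the mature miR-208b-3p at bases 46 to 67. The promoter fragment therefore held 15 of the 77 bases of this hairpin and none of its mature sequence, which lies on the neighbouring promoter fragment that also carries the start of ENSG00000258444. With both fragments counted, *MIR208B* had 24 distinct PIRs in place of 18. The other 6 hairpins in the RefSeq table held no HindIII site, and a *MIR206* hairpin was not analysed here.

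The member fragments had 78 interactions in the union, 50 in replicate 1, 45 in replicate 2 and 56 in replicate 3 (mean 50.3 ± 5.51 SD, n = 3). *MIR208A* had 18, 13 and 19 PIRs in replicates 1, 2 and 3 (16.7 ± 3.21), and *MIR208B* had 14, 10 and 16 (13.3 ± 3.06). *MIR499A* had 7, 5 and 7 (6.33 ± 1.15), *MIR1-2* had 5, 6 and 6 (5.67 ± 0.577) and *MIR133A1* had 3, 5 and 3 (3.67 ± 1.15). These were the 3 microRNAs of the myosin genes and the chromosome 18 pair. Few PIRs were called for *MIR133B*, with 2, 3 and 2 (2.33 ± 0.577), and for *MIR206*, with 1, 1 and 3 (1.67 ± 1.15). The chromosome 20 pair had the fewest, 0, 2 and 1 for *MIR133A2* (1.0 ± 1.0) and 1, 0 and 0 for *MIR1-1* (0.333 ± 0.577). In this order of means, the replicates of neighbouring genes overlapped everywhere except between *MIR208B* and *MIR499A*. In the union *MIR208A* had 22 PIRs, more than 85.9% of all promoter fragments, and *MIR208B* had 18, more than 81.3%. *MIR499A* with 11 stood above 66.3% of them, *MIR1-2* and *MIR133B* with 7 above 50.1%, and *MIR133A1* and *MIR206* with 5 above 38.2%. The median over all promoter fragments was 6, and over 495 fragments with the start of another microRNA gene it was 5.

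**Figure D1:**
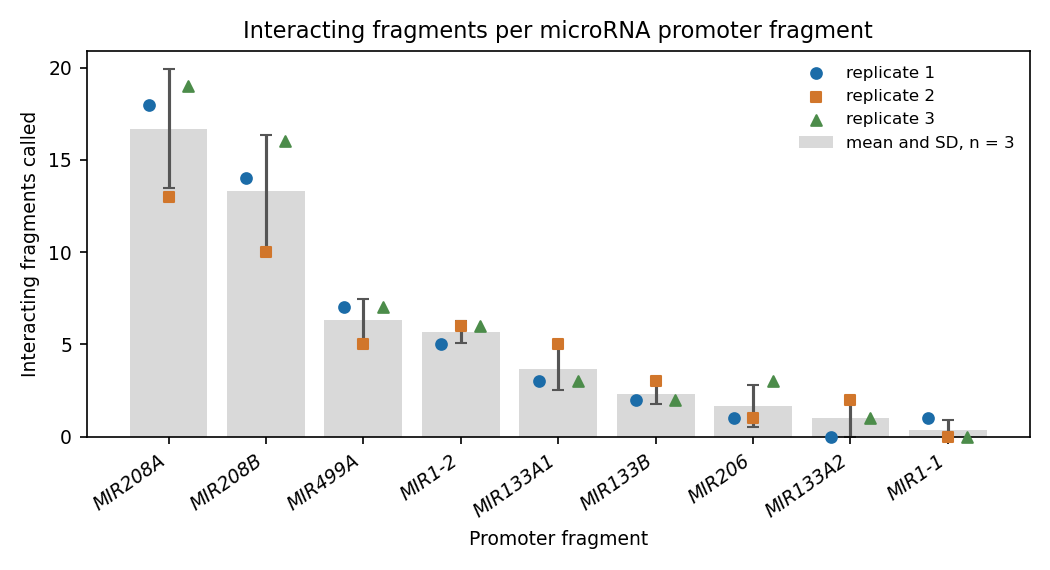
Number of interacting fragments called for each microRNA promoter fragment (y axis) in replicates 1, 2 and 3 (points), with the mean (bars) and SD (n = 3, cut at 0). *MIR208A* and *MIR208B* lie between 10 and 19 in every replicate, and *MIR133A2* and *MIR1-1* reach at most 2.

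All 3 replicates called 33 of the 78 interactions (42.3%, 95% Wilson interval 32.0 to 53.4% for counting error alone), 7 were called in 2 replicates and 38 in 1. Over all promoter fragments the share in all 3 replicates was 24.0%, and over the other microRNA fragments it was 23.5%. The 33 belonged to 5 members, 13 to *MIR208A*, 9 to *MIR208B*, 5 to *MIR1-2*, 3 to *MIR133A1* and 3 to *MIR499A*. *MIR1-1*, *MIR133A2*, *MIR133B* and *MIR206* had no contact in all 3 replicates. A contact in all 3 was thus found for 5 of 9 member fragments (55.6%), against 51.9% of all promoter fragments and 43.4% of the other microRNA fragments. Distance differed alongside. The median distance of member interactions was 108 kb, against 716 kb over all interactions, and it was 60.5, 62.8 and 62.8 kb within replicates 1, 2 and 3. For the interactions in all 3 replicates it was 58.6 kb, against 395 kb over all. Over the other microRNA fragments these 2 medians were 555 and 320 kb. The recurrent contacts of *MIR1-2*, *MIR133A1* and *MIR499A* lay at 108 to 736 kb, so the 58.6 kb is set mainly by *MIR208A* and *MIR208B*. Within 100 kb, 22 of 35 member interactions (62.9%) recurred in all 3 replicates, against 42.6% of all 7692 interactions at this distance. All 35 belonged to *MIR208A* or *MIR208B*, whose fragments lie 27.6 kb apart on chromosome 14. The nearest call of any other member was at 108 kb, for *MIR499A*. This share therefore describes 1 locus and not the members as a group. From 100 kb to 1 Mb it was 11 of 29 (37.9%), against 33.3%. None of the 8 member interactions over 1 Mb and none of the 6 between chromosomes was called in all 3 replicates, where the shares over all interactions were 11.8% and 8.95%. The 6 interactions between chromosomes made up 7.69% of those of the members, against 3.87% over all promoter fragments, but 5 of the 6 lay in 1 window of chromosome 5 within *GUSBP1*, and 1 was left without it. Another promoter fragment was the PIR in 12 of the 78 interactions (15.4%), against 9.59% over all and 17.4% over the other microRNA fragments. These shares are descriptions, since interactions of 1 fragment and of neighbouring fragments are not independent.

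**Figure D2:**
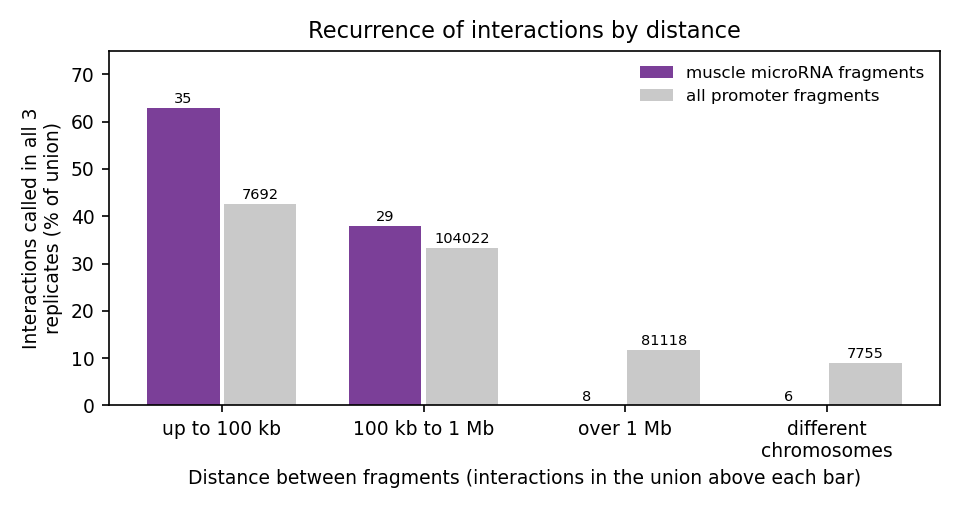
Share of interactions called in all 3 replicates (y axis, percent of the union) by the distance between fragments, for the muscle microRNA fragments and for all promoter fragments. The number above each bar is the number of interactions in the union. The member share falls from 62.9% within 100 kb to 0 beyond 1 Mb. All member interactions within 100 kb are those of *MIR208A* and *MIR208B*.

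*MIR208A* and *MIR208B* had contacts across the myosin locus of chromosome 14, where *MYH6*, the fast cardiac myosin of the atria and the adult rodent ventricle, and *MYH7*, the slow myosin of the human ventricle, lie side by side on the minus strand. The highest scoring PIRs of *MIR208A* were chr14:23921406-23923927, with scores of 16.51, 15.09 and 14.19 (mean 15.3 ± 1.17 SD, n = 3), and chr14:23913391-23914559, with 15.91, 15.24 and 14.55 (15.2 ± 0.68). Both lie between *MYH7* and *NGDN*, above the *MYH7* start. Neither was particular to *MIR208A*. In the union they were called with 13 and 9 promoter fragments, that of *MIR208A* included, and those of *MYH6* and *MYH7* were among them for both. The 2 PIRs belong to a run of 7 adjoining fragments, chr14:23906134-23923927 (17.8 kb), that begins at the end of the *MYH7* promoter fragment. All 7 were called with *MIR208A* in all 3 replicates, with mean scores of 6.08 to 15.3. With *MIR208B*, all 7 were called in at least 1 replicate and 4 of them in all 3, with means of 5.92 to 8.89, the highest again at chr14:23921406-23923927 (10.03, 8.51 and 8.14).

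The *MIR208B* promoter fragment was in contact with the promoter fragments of both myosin genes in all 3 replicates. Its scores with the *MYH6* fragment (chr14:23862443-23878395, 17.1 kb away, also holding the start of ENSG00000289973) were 11.02, 8.96 and 9.24 (9.74 ± 1.12), its highest mean of the replicates. The merged score, 11.15, was below those with chr14:23921406-23923927 (13.58), chr14:23892271-23904747 in *MYH7* (13.46) and chr14:23796208-23798190 (11.24). With the *MYH7* fragment (chr14:23904748-23906133, 17.9 kb away) they were 8.47, 6.98 and 8.13 (7.86 ± 0.781). *MIR208A* was called with the *MYH7* fragment at 7.43, 5.07 and 6.61 (6.37 ± 1.2), over 45.5 kb. No call joined it to the promoter fragment of its own host gene *MYH6*, 10.4 kb away. The 2 microRNA fragments, 27.6 kb apart, were called with each other at 5.35 in replicate 1 and 6.11 in replicate 3, and were not listed in replicate 2.

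On the other side of the myosin genes, the fragment chr14:23796208-23798190, between *BCL2L2-PABPN1* and *SLC22A17*, was called with both microRNAs in every replicate. In the union it was called with 13 promoter fragments, those of the microRNAs included. With *MIR208A*, 62.8 kb away, it scored 10.87, 13.15 and 10.61 (11.5 ± 1.40), and with *MIR208B*, 90.3 kb away, it scored 9.31, 7.66 and 6.18 (7.72 ± 1.57). The weakest recurrent contact of both was chr14:23837350-23838507, between *EFS* and *IL25*, at 5.50, 5.83 and 5.37 with *MIR208A* and at 5.69, 5.02 and 6.43 with *MIR208B*. Apart from their contact with each other, the pair shared 11 PIRs, which was 52.4% of the 21 of *MIR208A* and 64.7% of the 17 of *MIR208B* (Jaccard index, shared over all, 0.407). Of these, 7 were shared in all 3 replicates. The mean score of *MIR208A* was the higher one at 5 of these 7, and the scores of the replicates did not overlap at 4, with *MIR208A* above at each. The merged scores partly reversed this. In them *MIR208B* was higher at chr14:23837350-23838507 (8.35 against 5.86) and at the *MYH7* promoter fragment (10.92 against 7.4). *MIR208B* was also higher at chr14:23906134-23909228 (8.91 against 6.37) and at chr14:23919544-23921405 (9.4 against 8.11), the latter among those without overlap. At the rest of the 7, the merged score of *MIR208A* was higher. The *MIR208A* fragment is 4313 bp long and that of *MIR208B* 550 bp, and the part of length and distance in the difference was not tested. By shared PIRs, the promoter fragment most like *MIR208A* was that of *MYH6* (Jaccard index 0.588, 20 shared), followed by *CMTM5* (0.567) and *MYH7* (0.533). For *MIR208B* it was the neighbouring fragment with the start of ENSG00000258444 (0.583), which holds the rest of its hairpin, followed by *MIR208A* and *CMTM5* (0.387). *CMTM5* encodes a membrane protein of the chemokine-like factor family.

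**Figure D3:**
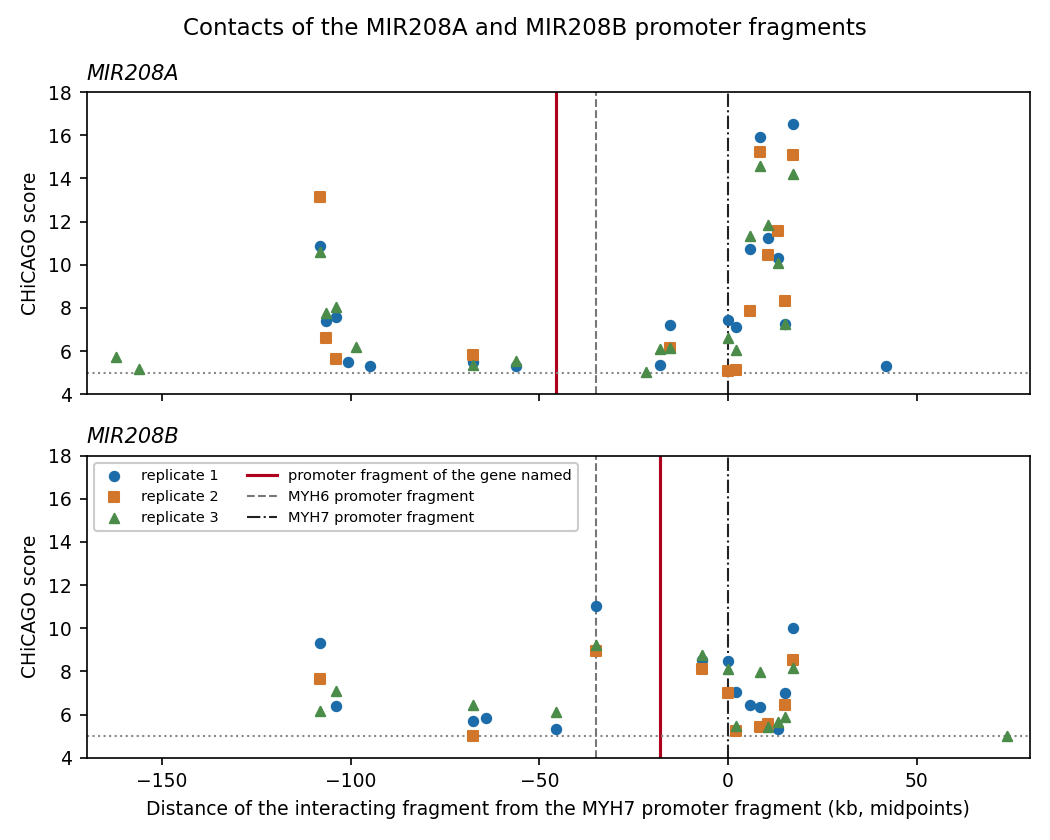
CHiCAGO score (y axis) of each fragment called with the *MIR208A* (top) and *MIR208B* (bottom) promoter fragment against its distance from the *MYH7* promoter fragment in kb, by replicate. The red line is the microRNA fragment, the dashed and dash-dotted lines are the *MYH6* and *MYH7* promoter fragments, and the dotted line is the lowest listed score of 5. 2 PIRs of *MIR208B*, 761 and 787 kb from it, lie outside the axis. The highest *MIR208A* scores, up to 16.51, stand to the right of *MYH7*.

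*MIR1-2* and *MIR133A1* were in contact with *GATA6*, which encodes a zinc finger transcription factor of heart and endoderm development. The *GATA6* promoter fragment, chr18:19745218-19754117, with the starts of *GATA6* and *GATA6-AS1*, was called with *MIR1-2* at 7.43, 7.16 and 9.13 (7.91 ± 1.07 SD, n = 3), over 341 kb. With *MIR133A1* it was called at 6.22, 7.13 and 6.32 (6.56 ± 0.499), over 343 kb. The next fragment, chr18:19754118-19755208 in a *GATA6* intron, scored 8.84, 10.73 and 7.90 with *MIR1-2* and 5.85, 5.62 and 6.83 with *MIR133A1*. Further into *GATA6*, *MIR1-2* had a recurrent contact with chr18:19755209-19758341, at 5.83, 6.46 and 6.93, and with chr18:19758342-19760248, which holds the start of the snRNA pseudogene *RNU6-702P*, at 5.11, 5.01 and 5.31. With *MIR133A1* both were called in replicate 2 alone, at 5.61 and 5.11. The *GATA6* promoter fragment and the intron fragment were called with no promoter fragment other than these 2.

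The farthest recurrent contact of both microRNAs lay beyond *GATA6*, at chr18:20140699-20143605, over the long non-coding RNA ENSG00000289624 between *CTAGE1* and *RBBP8*. It scored 10.48, 9.90 and 8.88 with *MIR1-2* (9.75 ± 0.81), 733 kb away, and 5.71, 7.14 and 7.67 with *MIR133A1* (6.84 ± 1.01), 736 kb away. For each of the 2 it was the contact with the highest mean of the replicates, but the order turned in the merged calls. There *MIR1-2* scored 14.6 with the *GATA6* intron fragment and 14.34 here, and *MIR133A1* scored 10.56 with the *GATA6* promoter fragment and 9.51 here. Without replicate 3, the mean of *MIR133A1* was also higher with the *GATA6* promoter fragment (6.67) than here (6.42). The same fragment was also the strongest PIR of the *GATA6* promoter fragment, at 39.12, 34.98 and 31.73 (35.3 ± 3.70). Each microRNA fragment was thus called with *GATA6* and with this fragment in every replicate, as was *GATA6* with this fragment. The fragment was not particular to them, since 5 promoter fragments were called with it in the union. Among these were a fragment with a snoU13 start and that of *RNU6-702P*, within *GATA6*. The *RNU6-702P* scores with it, 49.23, 46.65 and 36.65, were above those of *GATA6* in every replicate. No call joined *MIR1-2* to *MIR133A1*, but their midpoints are 2.62 kb apart, and a missing call does not show a missing contact. All 5 PIRs of *MIR133A1* were also PIRs of *MIR1-2* (5 of its 7, Jaccard index 0.714). At the 3 contacts that both had in all replicates, every *MIR1-2* score was above every *MIR133A1* score. The fragments are 2972 bp and 1959 bp long, and the part of fragment length in this was not tested. The next most alike promoter fragments were *GATA6* (0.111 for *MIR1-2* and 0.037 for *MIR133A1*) and *RNU6-702P* (0.0811 and 0.027). The promoter fragment of *MIB1* had 3 PIRs and shared none of them, and the fragment with the *MIR133A1HG* start was never in the first position of a call.

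Seen from the *GATA6* promoter fragment, the microRNA pair was part of a cluster of 4 adjoining fragments, chr18:19405499-19410798 (5.3 kb), that were all called in every replicate. The *GATA6* fragment had 25 PIRs in the union, and these 4 were among the 13 that it had in all 3 replicates. The strongest of the cluster held neither hairpin. It was the 213 bp fragment chr18:19410586-19410798, beside the *MIR1-2* fragment, at 16.81, 16.08 and 15.43 (16.1 ± 0.69), which ranked 3 of the 13 by mean score. The 156 bp fragment between the microRNAs, chr18:19407458-19407613, scored 7.45, 12.77 and 10.41 (10.2 ± 2.67) and ranked 6, while *MIR1-2* ranked 10 and *MIR133A1* 13. Both short fragments overlap exons of *MIR133A1HG* and are not promoter fragments, so their contacts with other fragments that lack a promoter could not be called. They are shown (GRCh37, plus strand) because they carried the strongest *GATA6* contacts of the cluster, with matches of the motifs below in capitals:
chr18:19410586-19410798: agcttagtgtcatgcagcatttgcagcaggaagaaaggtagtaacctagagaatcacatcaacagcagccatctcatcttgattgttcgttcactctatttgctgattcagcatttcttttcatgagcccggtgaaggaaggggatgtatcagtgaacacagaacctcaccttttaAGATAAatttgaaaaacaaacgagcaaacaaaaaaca
chr18:19407458-19407613: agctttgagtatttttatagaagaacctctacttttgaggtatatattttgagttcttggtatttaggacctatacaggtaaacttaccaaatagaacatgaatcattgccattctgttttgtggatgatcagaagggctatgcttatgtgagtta
Searched on both strands were the GATA motif AGATAA, the E-box CAGCTG and the TEAD motif GGAATG, which do not overlap each other. The 213 bp fragment held 1 GATA motif, which 16.5% of windows of this length along chromosome 18 hold, and neither of the others. The 156 bp fragment held none of the 3. These are letter matches and say nothing of binding.

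**Figure D4:**
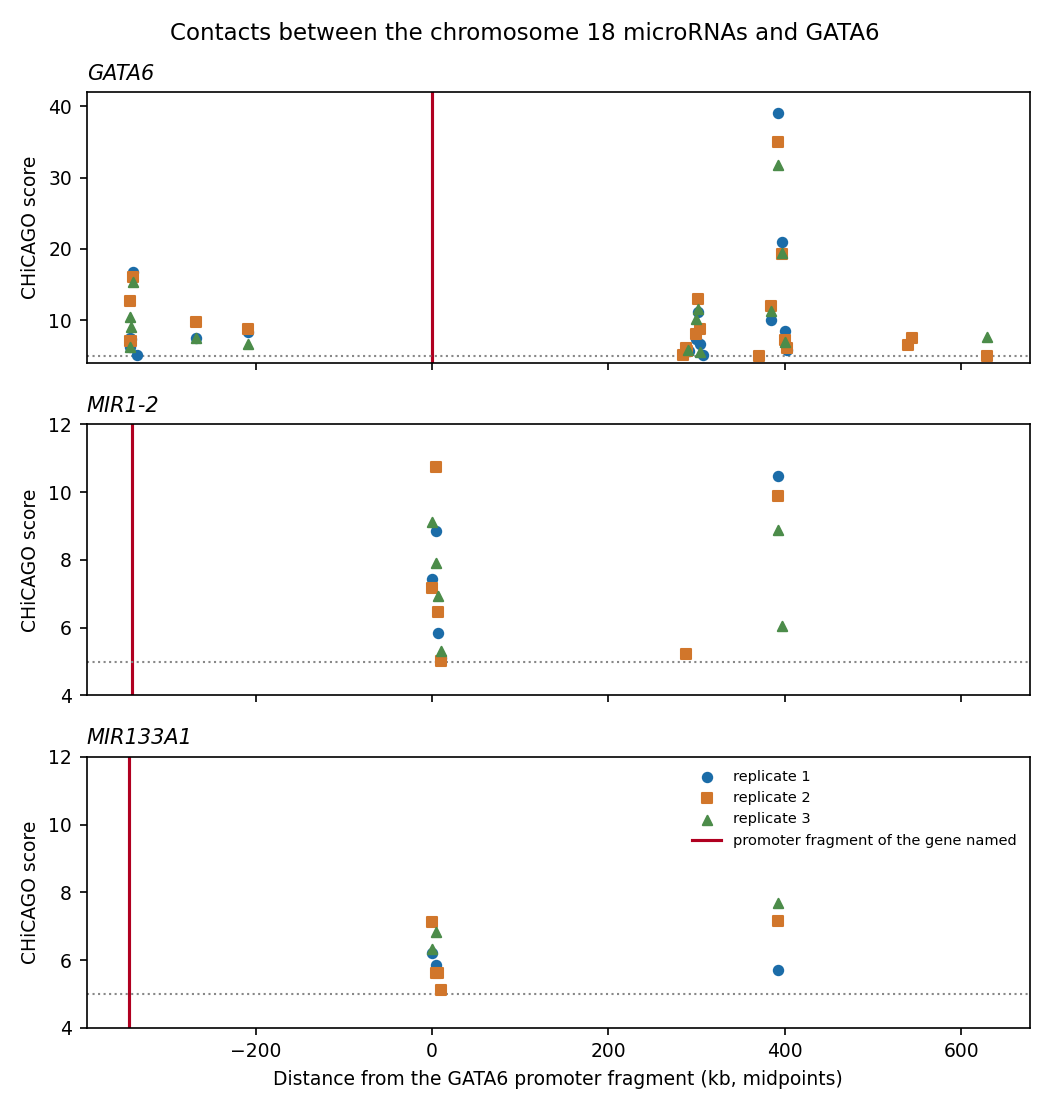
CHiCAGO score (y axis) of each fragment called with the *GATA6*, *MIR1-2* and *MIR133A1* promoter fragments (red lines) against its distance from the *GATA6* promoter fragment in kb, by replicate. The dotted line is the lowest listed score of 5, and the y axes differ. The microRNA fragments share the *GATA6* locus at 0 and the fragment 392 kb beyond it, where *GATA6* itself reaches 39.12.

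In the calls of the replicates, *MIR499A* contacted fragments on 1 side, 108 to 156 kb away, over and beside *GGT7* and *ACSS2*. The merged calls added 2 fragments on the other side, chr20:33779487-33782458 in a *PROCR* intron, 203 kb away at 5.19, and chr20:33849119-33851284, 272 kb away at 5.34, which no replicate listed. *ACSS2* encodes an acetyl-CoA synthetase and *GGT7* a member of the gamma-glutamyltransferase family. Of 11 PIRs, 3 were called in all 3 replicates. The fragment chr20:33468130-33469649, in an *ACSS2* intron, scored 7.33, 5.12 and 7.12 (6.52 ± 1.22 SD, n = 3), and the adjoining chr20:33469650-33470764, over an *ACSS2* exon and an annotated start, scored 5.45, 5.06 and 5.25 (5.25 ± 0.195). The latter was called with no other promoter fragment. The promoter fragment of *ACSS2* and *GGT7* was called with *MIR499A* in replicate 2 alone, at 6.13. The remaining one was a short fragment of 217 bp between *NCOA6* and *GGT7*, 149 kb away, at 6.53, 5.51 and 6.00 (6.01 ± 0.51). It is the shortest recurrent PIR of any member and is shown (GRCh37, plus strand) with its motif match in capitals:
chr20:33428485-33428701: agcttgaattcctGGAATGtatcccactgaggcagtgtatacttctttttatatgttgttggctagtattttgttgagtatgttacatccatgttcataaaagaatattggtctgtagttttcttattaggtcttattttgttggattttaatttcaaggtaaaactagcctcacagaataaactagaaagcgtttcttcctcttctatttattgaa
It held 1 TEAD motif, which 11.9% of windows of this length along chromosome 20 hold, and neither of the others. No contact was called between *MIR499A* and the promoter fragment of its host *MYH7B*, 29.0 kb away, which had 1 PIR, and none was shared. The promoter fragments most alike were *TRPC4AP*, a cation channel partner protein (Jaccard index 0.462, 6 shared), a fragment with the start of *MMP24OS* (0.333) and *MMP24*, a membrane metalloproteinase (0.308).

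**Figure D5:**
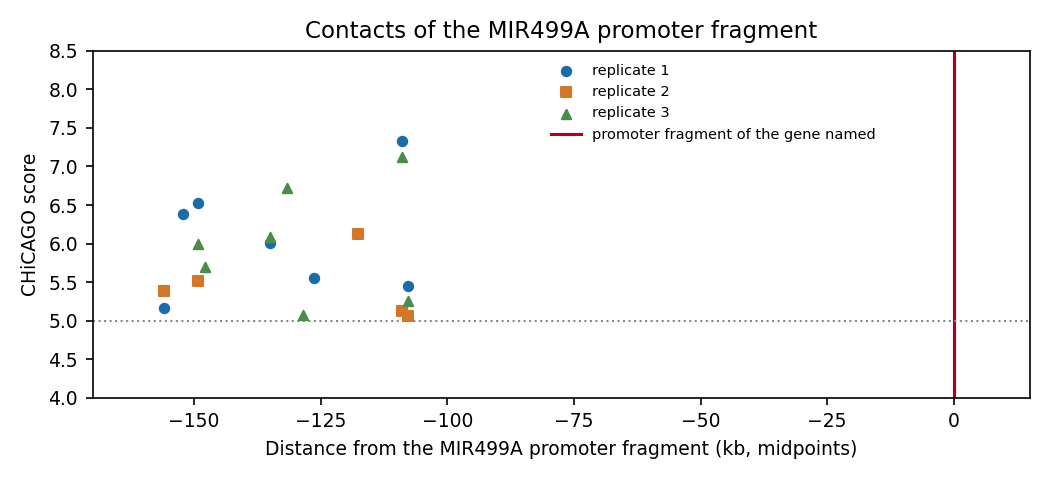
CHiCAGO score (y axis) of each fragment called with the *MIR499A* promoter fragment (red line) against its distance in kb, by replicate. The dotted line is the lowest listed score of 5. All fragments called in a replicate lie 108 to 156 kb to 1 side, and the highest score is 7.33.

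For the second copies of miR-1 and miR-133a, on chromosome 20, few calls were listed. *MIR1-1* was called with 1 fragment, in a *SYCP2* intron 2650 kb away, at 5.07 in replicate 1. *MIR133A2* was called with chr20:60993506-60993880 over *RBBP8NL* at 5.29 and with a fragment 29700 kb away at 5.26, both in replicate 2, and with a fragment over *COL9A3* at 5.05 in replicate 3. The *MIR1-1* and *MIR133A2* fragments, 14.0 kb apart, shared no PIR. They were the longest member fragments after that of *MIR499A*, at 7236 and 7098 bp. With identical mature sequences, *MIR1-2* and *MIR133A1* had 5 and 3 contacts called in all 3 replicates where *MIR1-1* and *MIR133A2* had 0. Such a contact was called for 51.9% of all promoter fragments, and a missing call does not show a missing contact.

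*MIR206* and *MIR133B*, on adjoining fragments of chromosome 6, shared none of their 5 and 7 PIRs, and none of these was called in more than 1 replicate. Their highest scores were 11.23 for *MIR133B* with chr5:21570086-21571966 in replicate 2, and 8.02 for *MIR206* with a fragment over *CRISP3* in replicate 3. 5 of the 12 lay on chromosome 5 within *GUSBP1*, a pseudogene, in the window chr5:21529360-21571966 (42.6 kb), 2 for *MIR206* and 3 for *MIR133B*, at scores of 5.19 to 11.23 in replicates 2 and 3. The same window was called with 22 promoter fragments in 94 interactions, all of them on chromosome 6, and 20 of the 22 started between 49 and 65 Mb. Of the 94, 50 were called in 1 replicate, 29 in 2 and 15 in 3, and the 15 belonged to 3 promoter fragments, 9 of them to that of *PRIM2*. Whether these calls are contacts in the nucleus, and how reads mapped in this window, was not tested.

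Of 151 scores of the members in the 3 replicates, 58 (38.4%) lay between 5 and 6, against 35.6% of all 332944 scores. A score of 10 or more was reached by 22 (14.6%), against 17.8% over all, and the highest was 16.51. Among the 33 contacts in all 3 replicates, the mean scores ran from 5.14 to 15.3, the SD between replicates had a median of 0.802 and was at most 1.86. In the authors' merged calls all 33 were listed again (how the replicates were merged is not given in the sources used here), and for 26 the authors' merged score was above all 3 replicate scores.

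The factors known to act on myomiR genes and the messages that myomiRs are reported to target were taken as 4 lists of genes. Over all 25447 genes with a promoter fragment, 53.7% had a contact in all 3 replicates, and 11 genes other than the members (0.0432% of 25440) were called with a member fragment in any replicate. No gene of the 4 lists was among the 11, and at this background share nothing can be read from that. The list counts below are out of all genes listed, and the medians count a gene without such a fragment as 0. They are therefore not like for like with the 53.7%. Of 13 regulators (SRF, MYOCD, the MEF2 factors, GATA4 and others), 12 had a promoter fragment with a call and 10 had a contact in all 3 replicates, with a median of 11 PIRs. *GATA4*, a cardiac zinc finger factor, had 41 and *TEAD1*, a Hippo pathway factor, had 38 over 2 promoter fragments. *SRF*, the serum response factor, and *THRB*, a thyroid hormone receptor, had 2 each, and *MEF2A* had no promoter fragment with a call. Of 13 reported targets of miR-1 and miR-206, 12 had contacts, 9 in all 3 replicates, with a median of 20 PIRs. *HAND2*, a factor of ventricular growth, had 100 and *GJA1*, the gap junction protein connexin 43, had 49, against 2 for *HDAC4*, a histone deacetylase, and for *PAX7*, a factor of muscle stem cells. *MEF2A*, which is also on this list, had no promoter fragment with a call. Of 10 reported targets of miR-133, 9 had contacts, 5 in all 3 replicates, with a median of 5.5 PIRs. The numbers ran from 43 for the pacemaker channel *HCN4* and 26 for the cyclin *CCND2* to 1 for *NELFA*. *HCN2* had no promoter fragment with a call and was counted as 0. Of 8 reported targets of miR-208 and miR-499, 7 had contacts, 5 in all 3 replicates, with a median of 9 PIRs. The numbers ran from 93 for the connexin *GJA5* and 41 for *GATA4* to 3 for *SP3*. *MED13* had no promoter fragment with a call and was counted as 0. The 93 of *GJA5* came from 2 promoter fragments, and 12 of them were called in all 3 replicates.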

How the data were processed

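Used were the PCHi-C calls that the authors deposited for hESC-CMs, in 3 biological replicates and merged. Each line gives a pair of HindIII fragments in GRCh37 and a CHiCAGO score, and the authors mapped the reads with HiCUP and called interactions with CHiCAGO before deposit. Genes and starts came from GENCODE v44 (lifted to GRCh37), and sequences from GRCh37 and RefSeq. The RefSeq hairpins of 8 members each matched GRCh37 at 1 place, *MIR206* was placed by GENCODE, and 64 of 64 fragments checked began at a HindIII site. Distances are between fragment midpoints, SDs are between replicates, and intervals are 95% Wilson intervals. Alternatives were scores of at least 7 and 10, each replicate left out, the merged calls, first position only, at most 1 Mb, matching within 5 kb, and any fragment over the hairpin. On simulated data, the look-up of starts, the distances and the reverse complement were checked, but not the code that counted the interactions. Members, lists and the naming rule were chosen with earlier results of these data known. Named were the members, their hosts, the promoters and the 3 highest contacts recurring in all replicates, the 3 most alike promoter fragments, and the 2 list genes with most and fewest PIRs. Other genes were named after their values were seen. Scripts used Python 3.11.15, pandas 2.3.3, numpy 2.4.6, matplotlib 3.10.9 and scipy 1.17.1.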

Additional observations from a re-analysis of the deposited data

How the results depend on the processing

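The score minimum moved the counts most. With a score of at least 7, 30 interactions were left, 13 of them in all 3 replicates, with a median distance of 59.6 kb, and with a score of at least 10 there were 11, 5 and 57.4 kb. The median distance of 108 kb also moved with the merged calls (88.1 kb), with the member fragment in first position only (99.8 kb), with at most 1 Mb (86.6 kb) and with any fragment over the hairpin (72.4 kb). Counting a PIR within 5 kb as a match raised the interactions in all 3 replicates from 33 to 52, 66.7% of the union. With each replicate left out in turn, the median distance was 74.4 to 108 kb and the share called in both others 50.7 to 55.9%, where fewer replicates must call an interaction. Of 36 alternatives for the number of interactions, those in all replicates, their share and the distance, 20 stayed within the limits set and 16 moved. For the PIRs of single genes and the scores it was 84 of 123. With a score of at least 7, *MIR208A* had 12 PIRs, *MIR208B* 8, *MIR1-2* 3, *MIR133B* 3, *MIR133A1* 2, *MIR206* 1 and *MIR499A* 1, and *MIR1-1* and *MIR133A2* had 0. Single replicates decided small counts: without replicate 2, *MIR133A1* went from 5 to 3, *MIR133A2* from 3 to 1 and *MIR133B* from 7 to 4, without replicate 3, *MIR206* went from 5 to 2, and without replicate 1, *MIR1-1* went from 1 to 0. In the merged calls *MIR1-1*, *MIR133B* and *MIR206* had no PIR. There *MIR208B* had more PIRs than *MIR208A*, 19 against 15, the reverse of the order in the replicates. No paired analysis was possible because there was 1 group. The list starts at a score of 5, and read depth was not analysed, so weak contacts cannot be told from missing ones.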
